A study of Danio rerio with 47 samples.

Results

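The comparison described here splits wild-type zebrafish trunks of 22 days post fertilization (dpf) by how much RNA of 5 oocyte genes they held. The arrays were chosen by measured values: each of the 14 wild-type arrays of that age was scored by the mean log2 level of zp3, zp2.2, figla, zar1 and buc. The 7 arrays with the highest scores are called oocyte-rich and the 7 with the lowest oocyte-poor, out of 47 arrays in the whole series. The names stand for transcript levels, since no count of oocytes was at hand. Every difference between the groups is therefore a description and carries no p-value.

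The series used 1-colour NimbleGen arrays to measure gene expression in developing trunk regions of dnd morphants and wild-type fish at 14 and 22 dpf. The morphants (9 arrays of 14 dpf and 10 of 22 dpf) received a morpholino against dnd, an antisense oligonucleotide, at the single-cell stage, and their labels give 1 to 9 primordial germ cells, with embryos screened at 24 hours post fertilization. The wild-type fish (14 arrays of each age) are labelled as having a high, uncounted germ cell number, and the labels do not say whether they received a control injection. All fish were reared at 28 °C, neither sex nor strain is given, and RNA was amplified before labelling. The labels call the arrays biological replicates, but single fish and pooled fish are not distinguished, so that any p-value measures only the spread between these samples.

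Zebrafish have no single sex-determining chromosome in laboratory strains, and the juvenile gonad commonly forms immature oocytes before it becomes an ovary or a testis. Growing oocytes store messages for the early embryo and make the glycoproteins of the egg coat. Germ plasm, piRNA and meiosis genes are already expressed in younger germ cells. The somatic cells around them make steroid hormones and express genes typical of ovary or testis. In a whole trunk, fewer cells of a type and less RNA per cell cannot be told apart.

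Values are deposited log2 levels, between 3.30 and 15.86 over the whole table, and differences are differences of group means in log2 units, oocyte-rich minus oocyte-poor, with their standard error (SE). Array medians lay between 7.26 and 7.70 in the whole series, between 7.64 and 7.70 on oocyte-rich arrays and between 7.58 and 7.69 on oocyte-poor arrays. A level on 1 row is not ranked against a level on another row. Words such as high, low or near the low end place a level on the scale of the whole table or beside other arrays. No level is compared between ages, since the sources used here do not say whether both were normalized together. The morpholino's target, dnd1 (listed as dnd), ran from 4.44 through a median of 5.22 to 8.13 on the morphant arrays of 22 dpf. It had 8.88, 10.17 and 12.03 as lowest, median and highest level on oocyte-rich arrays, and 4.47, 8.90 and 10.77 on oocyte-poor arrays. A morpholino acts on translation or splicing, so the RNA level does not check it directly.

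Some arrays resemble each other more than replicates of one group usually do. Deviations from the group mean correlated at r = 0.893 between P5 and P6, at 0.750 between P7 and P8 and at 0.701 between P9 and P10, where P is the number in the array's title. The highest value among the other 88 wild-type pairs of 22 dpf was 0.413. These correlations run across rows and describe likeness only. P5, P6, P9 and P10 were all oocyte-rich, and P7 and P8 both oocyte-poor, so that averaging each pair leaves 5 oocyte-rich and 6 oocyte-poor samples. Among morphants of 22 dpf, P1 and P2 (0.749) and P3 and P4 (0.720) were alike in the same way. If such arrays hold the same fish or the same RNA, p-values from all arrays are too small. The same holds for the SEs of the split, which take each array as a separate sample.

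The oocyte-rich scores were 13.50 for P6, 13.46 for P5, 12.48 for P22, 12.48 for P19, 11.47 for P10, 11.30 for P9 and 11.05 for P20. The oocyte-poor scores were 10.92 for P12, 10.15 for P21, 10.13 for P24, 9.71 for P8, 9.54 for P7, 6.67 for P23 and 6.59 for P11. Arrays P20 and P12 stand on either side of the boundary and differ by only 0.14, whereas the widest step between neighbouring scores lies within the oocyte-poor group, between P7 and P23. Both title-number ranges are in each group, with 4 oocyte-rich and 4 oocyte-poor arrays numbered up to 12 and 3 and 3 numbered above it. Scaling each of the 5 markers to the same spread before averaging put the same arrays in each group.

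**Figure D1:**
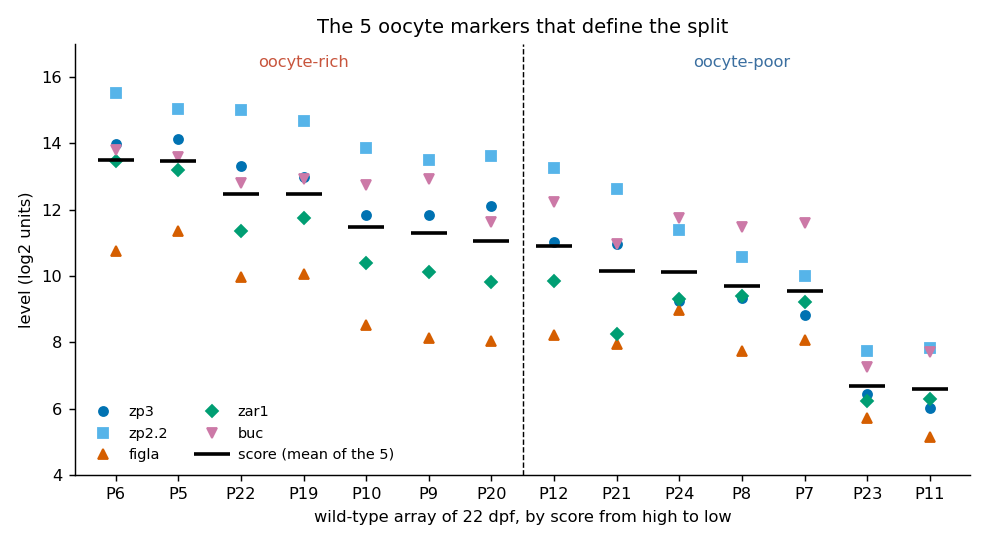
Levels of the 5 marker genes (symbols, log2 units) and their mean, the score (black bars), on each of the 14 wild-type arrays of 22 dpf, ordered from the highest to the lowest score. The dashed line divides the 7 oocyte-rich from the 7 oocyte-poor arrays, P20 at 11.05 and P12 at 10.92 lie next to it, and P23 and P11 lie lowest at 6.67 and 6.59.

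Zp3 and zp2.2, which encode egg coat glycoproteins, differed most among the markers. Zp3 had 11.84, 12.97 and 14.13 as lowest, median and highest level on oocyte-rich arrays, against 6.003, 9.26 and 11.02 on oocyte-poor arrays. Figla, a transcription factor that switches on oocyte genes, had 8.04, 9.96 and 11.34 on oocyte-rich arrays and 5.15, 7.94 and 8.98 on oocyte-poor arrays. The groups are apart for zp3 and overlap for figla. Zar1, an RNA-binding protein of the egg, had medians of 11.34 on oocyte-rich and 9.21 on oocyte-poor arrays. Buc, which organizes the Balbiani body of the young oocyte, had medians of 12.92 on oocyte-rich and 11.48 on oocyte-poor arrays. Buc was at 10.96 or more on 5 of the 7 oocyte-poor arrays, and at 7.26 and 7.70 on P23 and P11.

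Among the other 31470 rows, 103 were higher on oocyte-rich arrays by at least 1 log2 unit with every oocyte-rich array above every oocyte-poor one, which is 0.327% of the rows. Only 7 rows, 0.0222%, were lower in the same way. With shares this small, 0 counted members in a list is near the share over all rows. Counting any difference of at least 1 unit, with overlap allowed, gave 1158 higher (3.68%) and 321 lower rows (1.02%). The 103 differences ran from 1.09 to 5.98 with a median of 3.50, and the median was 2.83 without P11 and P23 and 2.81 without P5 and P6. The lowest array was P11 or P23 for 83 of the 103 rows, and the highest was P5 or P6 for 98 of them. In 40 of these rows the oocyte-poor median was under 7, and so below the array medians of the series, which were 7.26 or more.

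Names could be given to 72 of the 103 rows, and 36 of these are clone or locus names without a described role, while 31 rows matched no gene. Of the 103 rows, 12 carry a name of the zona pellucida family of egg coat genes, 1 of them without a gene match. Neighbouring genes recur as well. In RefSeq's gene order for the GRCz12tu assembly, 21 of 70 counted or marker genes that could be placed lie in 9 runs of direct neighbours. The longest run holds 5 genes, zgc:173556, zp3.1, zp3, zp3.2 and LOC100536860, and zp2.2 with zp2.5 and zp3a.2 with zp3a.1 form others. No share of neighbours over all placed genes was computed for comparison. Rows of close copies may share hybridization signal, and so may not be independent of each other or of the markers zp3 and zp2.2. Whether these rows do was not tested.

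The egg coat list followed the score closely, which the rule partly fixed, since the markers zp3 and zp2.2 are egg coat genes. Of its 14 measured members, 10 were counted as higher, beside 0.327% of all rows, and all 14 were at least 1 unit higher, beside 3.68%. The median difference was 3.63, beside -0.04 over all rows. It was 3.67 with pairs averaged, 2.78 without P11 and P23 and 3.06 without P5 and P6. The list's mean level ran from 10.84 to 13.77 on oocyte-rich arrays and from 6.42 to 9.81 on oocyte-poor arrays, so the groups were apart. One member, zglp1, is a zinc-finger protein listed because of its name and is no coat protein, and it had the smallest difference, 1.31 (SE 0.55).

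The egg coat gene zp3.1 had 10.13, 12.55 and 13.54 as lowest, median and highest level on oocyte-rich arrays, against 4.80, 6.67 and 9.91 on oocyte-poor arrays, a difference of 4.93 (SE 0.88). On P23 and P11 it stood at 4.80 and 5.62, close to the low end of the scale. Zpax4 (listed as wu:fi38e01), of the same family, ran from 11.35 through 13.17 to 15.18 on oocyte-rich arrays and from 4.62 through 8.29 to 10.94 on oocyte-poor arrays, with a difference of 4.89 (SE 1.08). Neither gene's groups overlapped. Zp3a.1 differed by 5.34 (SE 1.00), zp3e (listed as zgc:171779) by 4.79 (SE 0.85), zp3.2 by 4.66 (SE 0.86) and zp3b by 3.14 (SE 0.65). Zp2.5 was already high on some oocyte-poor arrays, with 13.83, 14.53 and 15.24 on oocyte-rich arrays and 7.19, 11.17 and 13.58 on oocyte-poor arrays. Zpcx overlapped between the groups, with 10.52, 10.86 and 12.59 on oocyte-rich arrays and 5.27, 7.28 and 10.71 on oocyte-poor arrays. Its top oocyte-poor array was P12, the one next to the boundary.

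Genes whose products act inside the egg fell into several patterns along the score. Of the 25 measured oocyte factors, 4 were counted as higher (btg4, h1m, gtf3ab and pabpc1l), beside 0.327% of all rows. At least 1 unit higher were 17, beside 3.68% of all rows, and the median difference was 1.60. It was 1.16 without P11 and P23 and 1.03 without P5 and P6. P5 and P6 were both above the 12 other arrays for 21 of the 25 members, beside 7.69% of all rows. P11 and P23 were both below the 12 others for 13 members, beside 2.19% of all rows.

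In the first pattern, genes were high on oocyte-rich arrays and near the low end of the scale on most oocyte-poor ones. Btg4, which in the mouse directs the removal of maternal messages, had 9.59, 10.22 and 13.88 as lowest, median and highest level on oocyte-rich arrays, against 4.60, 5.62 and 9.39 on oocyte-poor arrays. Its difference was 5.17 (SE 0.92), and of the oocyte-poor arrays only P12 at 9.39 and P21 at 7.07 lay above 6. The uncharacterized gene zgc:173545 differed by 5.78 (SE 0.89), with all oocyte-poor arrays between 4.34 and 6.62 and all oocyte-rich arrays between 9.05 and 14.44. Near the low end a difference may understate the change. Slc7a1b (listed as zgc:63694), a member of the cationic amino acid transporter family, was graded instead and differed by 5.91 (SE 1.04). It ran from 12.33 through 14.07 to 15.24 on oocyte-rich arrays and from 4.54 through 8.46 to 11.77 on oocyte-poor arrays. Its levels largely declined with the score across both groups, and no oocyte-poor array reached the lowest oocyte-rich one.

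Genes with roles in the early embryo were among the counted rows, and those given here were picked after their values were seen. Foxh1, a transcription factor that relays Nodal signals in the early embryo, had 7.18, 9.22 and 11.28 on oocyte-rich arrays and 4.35, 5.05 and 6.70 on oocyte-poor arrays, a difference of 3.48 (SE 0.74). Gdf3 (listed as dvr1), the maternal partner of the Nodal ligands, had 7.87, 9.72 and 12.45 on oocyte-rich arrays and 5.0005, 6.92 and 7.77 on oocyte-poor arrays, a difference of 3.41 (SE 0.79). The Wnt ligand gene wnt8-2 differed by 2.76 (SE 0.66), and its groups were also apart. The Wnt list does not hold this gene, and 0 of its 51 members were counted, beside 0.327% of all rows counted as higher. Gtf3ab, a factor for transcription of 5S ribosomal RNA genes, differed by 3.52 (SE 0.96) with an oocyte-rich range of 9.20 to 13.63 and an oocyte-poor range of 4.84 to 9.09. Of the oocyte-poor arrays only P23 at 4.84 and P11 at 5.21 were near the low end for gtf3ab. The tubulin gene tuba4l differed by 2.05 (SE 0.47) and was high on oocyte-poor arrays too, with a median of 12.05.

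In a second pattern, genes were high on all arrays but P23 and P11. Cldnd, a claudin of oocytes and early embryos, had 12.37, 14.23 and 15.42 as lowest, median and highest level on oocyte-rich arrays, against 4.67, 11.30 and 12.90 on oocyte-poor arrays. It was at 4.67 on P23 and 5.03 on P11 and at 11.16 or more on the other 5 oocyte-poor arrays. The difference of 4.46 (SE 1.34) was 2.51 without those arrays. Npm2b (listed as npm2), a nucleoplasmin that packages chromatin in the egg, ran from 13.37 through 14.67 to 15.46 on oocyte-rich arrays and from 8.98 through 13.51 to 14.07 on oocyte-poor arrays. Its difference of 2.06 (SE 0.88) was 0.80 without P11 and P23. The oogenesis-related gene org had 11.24, 12.58 and 13.48 on oocyte-rich arrays and 8.14, 11.20 and 11.99 on oocyte-poor arrays. For org the difference of 1.82 (SE 0.59) was 1.16 without P11 and P23.

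H1m, a linker histone of germ cells and early embryos, was graded along the score and lowest on P23 and P11. It had 12.33, 13.89 and 15.13 on oocyte-rich arrays and 5.19, 10.13 and 12.29 on oocyte-poor arrays, a difference of 4.07 (SE 1.098). The groups were apart by a narrow margin, with P20 at 12.33 and P12 at 12.29. Pabpc1l, a poly(A)-binding protein of oocytes, differed by 2.94 (SE 0.84), with no overlap. Npm2a, the other nucleoplasmin gene, differed by 2.84 (SE 0.97) and stood at 4.21 and 4.87 on P23 and P11, against 8.60 or more on the other oocyte-poor arrays. The survivin-family gene birc5b, from the p53 and apoptosis list, differed by 3.09 (SE 0.95) and was lowest on the same arrays, at 5.22 on P23 and 6.44 on P11.

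Another pattern was confined, among the 14 arrays, to the near-duplicates P5 and P6. Mos, a kinase that controls the meiotic arrest of the egg, had 9.99 and 9.49 on P5 and P6, between 4.65 and 6.84 on the other 5 oocyte-rich arrays, and between 4.82 and 6.12 on oocyte-poor arrays. The growth factor gdf9, which oocytes secrete, had 8.72 and 8.71 on P5 and P6, between 4.89 and 6.69 on the other oocyte-rich arrays and between 4.70 and 6.19 on oocyte-poor arrays. Without P5 and P6 the difference was 0.48 for mos (1.58 with them) and 0.28 for gdf9 (1.097 with them). Since P5 and P6 may be 1 sample, these levels rest on as little as 1 fish or pool. Bmp15, the partner of gdf9, was more evenly graded, with 7.26, 8.55 and 10.54 on oocyte-rich arrays and 6.60, 7.38 and 8.30 on oocyte-poor arrays. The kinase gene wee2, which holds the egg in arrest in mammals, differed by 1.76 (SE 0.64), the transcription factor genes lhx8a by 1.95 (SE 0.43) and foxr1 (listed as zgc:171734) by 2.15 (SE 0.76).

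**Figure D2:**
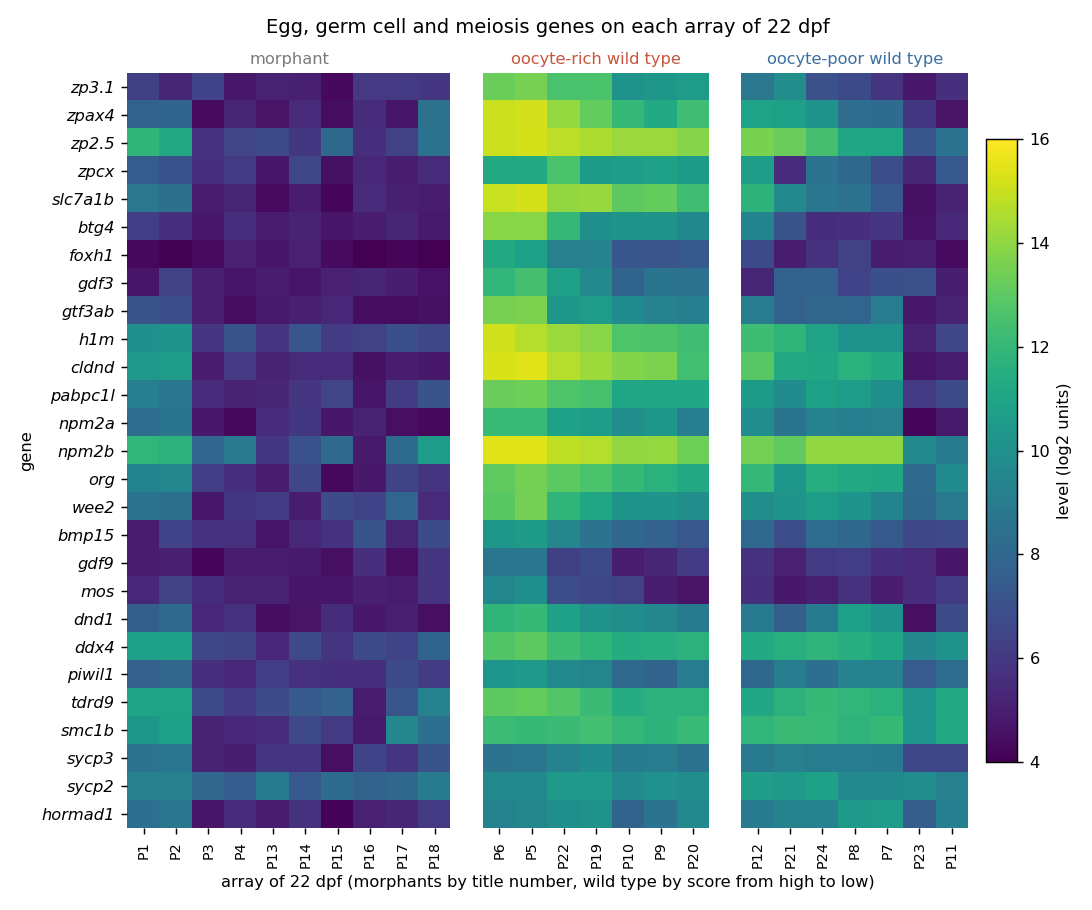
Levels (colour, log2 units) of 27 egg, germ cell and meiosis genes on the 10 morphant, 7 oocyte-rich and 7 oocyte-poor arrays of 22 dpf, with wild-type arrays ordered by score. Btg4 and foxh1 are low on most oocyte-poor arrays, cldnd and npm2a are low only on P23 and P11 among wild-type arrays, mos and gdf9 are high on P5 and P6, and smc1b and sycp2 differ little between the wild-type groups.

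Germ plasm and piRNA genes differed less than egg genes and seldom separated the groups. Of 15 measured germ plasm members, 1 was counted as higher (h1m, which is also an oocyte factor), beside 0.327% of all rows. At least 1 unit higher were 8, beside 3.68% of all rows, and the median difference was 1.07. Of 18 measured piRNA members, 0 were counted, 9 were at least 1 unit higher, beside the same 3.68%, and the median difference was 0.99. These medians were 0.71 and 0.69 without P11 and P23, and 0.73 and 0.62 without P5 and P6. The 8 germ plasm members at 1 unit or more became 5 without P11 and P23 and 4 without P5 and P6, and the 9 piRNA members became 4 in either case. Over all 31470 rows, 1033 were at least 1 unit higher without P11 and P23, and 879 without P5 and P6. P5 and P6 were above all other arrays for 11 of the 15 germ plasm and 13 of the 18 piRNA members, beside 7.69% of all rows.

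Ddx4 (listed as vasa), the RNA helicase used as a marker of all germ cells, had 11.43, 11.86 and 13.01 as lowest, median and highest level on oocyte-rich arrays, against 9.55, 11.35 and 11.81 on oocyte-poor arrays. The difference was 1.07 (SE 0.39), and 0.60 without P11 and P23. P11 at 10.11 and P23 at 9.55 were the lowest arrays, and the same arrays stood near the low end of the scale for zp3.1 and cldnd. Dnd1 differed by 2.24 (SE 0.93), and its 2 lowest levels were 4.47 on P23 and 6.74 on P11. The RNA-binding protein gene dazl differed by 0.84 (SE 0.37) and nanos3, a translational regulator of germ cells, by 0.60 (SE 0.49). Buc2l (listed as loc100537720), a relative of buc, differed by 3.09 (SE 0.87), and ca15b, a carbonic anhydrase of germ cells, by 2.68 (SE 0.92), both with overlap.

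The Piwi proteins load the small RNAs that silence transposons. Piwil2 had 9.30, 10.55 and 10.99 on oocyte-rich arrays and 8.39, 9.50 and 9.87 on oocyte-poor arrays, a difference of 1.07 (SE 0.32), and piwil1 differed by 0.74 (SE 0.47). Other differences in the piRNA list were those of tdrd5, a Tudor-domain protein (1.75, SE 0.51), asz1, which acts at mitochondria in piRNA production (1.62, SE 0.66), and the RNA helicase mov10l1 (listed as zgc:154086), which feeds piRNA precursors into processing (1.49, SE 0.43). Tdrd9, a helicase of the same pathway, differed by 0.84 (SE 0.35) and stood at 10.28 on P23 and 11.35 on P11. All of these overlapped between the groups.

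Meiosis genes were nearly level. Of 24 measured members 0 were counted, beside 0.327% of all rows counted as higher. At least 1 unit higher was 1 member, beside 3.68% of all rows, and at least 1 unit lower was 1, beside 1.02%. The median difference was 0.23. The list's mean level ran from 8.31 to 8.87 on oocyte-rich arrays and from 7.84 to 8.85 on oocyte-poor arrays. P5 and P6 were above all other arrays for 3 of the 24 members, beside 7.69% of all rows. P11 and P23 were below all others for 7 members, beside 2.19% of all rows, among them sycp1, sycp3, smc1b and spo11. Without P11 and P23 the median difference was 0.05.

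Smc1b, a cohesin subunit of meiosis, had 11.74, 12.12 and 12.41 as lowest, median and highest level on oocyte-rich arrays, against 10.24, 11.88 and 12.18 on oocyte-poor arrays. Its difference was 0.45 (SE 0.27), and 0.10 without P11 and P23. The synaptonemal complex gene sycp3 differed by 0.65 (SE 0.49), and by -0.06 without P11 and P23, its 2 lowest arrays at 6.55 and 6.59. Its medians were 8.92 on oocyte-rich and 9.02 on oocyte-poor arrays. Sycp2, of the same complex, differed by -0.07 (SE 0.26) and hormad1, of the chromosome axis, by -0.08 (SE 0.49). Hormad1 differed by 1.18 among the arrays numbered above 12, 3 against 3 with P23 among the oocyte-poor ones, and therefore by a negative amount among those up to 12. The cohesin gene stag3 (listed as loc100333021) differed by 1.05 (SE 0.35) and spo11, which makes the breaks for recombination, by 1.00 (SE 0.56). Syce2, a central element of the synaptonemal complex, went the other way, with 6.59, 8.50 and 10.62 on oocyte-rich arrays and 5.92, 11.11 and 11.82 on oocyte-poor arrays (-1.14, SE 1.01).

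**Figure D3:**
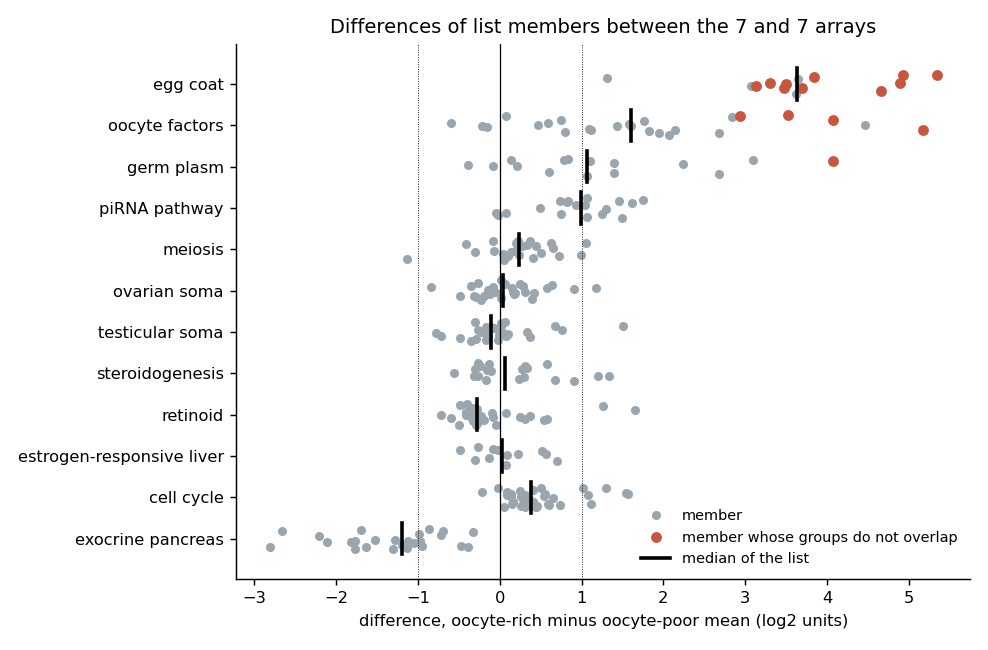
Difference of each list member between oocyte-rich and oocyte-poor means (log2 units), with 1 point per gene, the list median as a bar, and members whose groups do not overlap in red. Medians decline from 3.63 for the egg coat through 1.60 for oocyte factors and 0.99 for the piRNA pathway to 0.23 for meiosis, and exocrine pancreas genes lie below 0 with a median of -1.19. The egg coat median is not independent of the split, whose markers include the egg coat genes zp3 and zp2.2.

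The list of somatic genes typical of the ovary showed little of the gradient as a whole. Only 8 of its 28 measured members fell in the morphants described below, so its median rests largely on genes not called there. Of 28 measured members 0 were counted, beside 0.327% of all rows counted as higher. At least 1 unit higher was 1 member, beside 3.68% of all rows, and the median difference was 0.04. That member was foxl2a (listed as foxl2), a transcription factor of ovarian somatic cells, which had 8.25, 8.88 and 9.88 on oocyte-rich arrays and 5.73, 8.04 and 8.38 on oocyte-poor arrays (1.18, SE 0.41). All oocyte-rich arrays but P10 lay above the highest oocyte-poor one, P9 by less than the second decimal, and P11 lay far below the rest at 5.73. Aromatase, cyp19a1a, which makes estrogen, had 5.22, 8.10 and 8.46 on oocyte-rich arrays and 4.80, 7.28 and 8.30 on oocyte-poor arrays. Its difference was 0.40 (SE 0.62), with wide overlap. It was 1.61 among the arrays numbered above 12, 3 against 3 with P23 among the oocyte-poor ones, and therefore negative among those numbered up to 12. Foxl2l (listed as zgc:194189), a forkhead gene of zebrafish germ cells on the way to oocytes, differed by -0.35 (SE 0.52). Its difference was 0.80 among the arrays numbered above 12, and therefore negative among those numbered up to 12.

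Steroid synthesis genes did not separate the groups, and a few were highest on P5 and P6. Of 20 measured members 0 were counted, beside 0.327% of all rows counted as higher, and 2 were at least 1 unit higher, beside 3.68%. The median difference was 0.07. P5 and P6 were above all other arrays for 4 of the 20, beside 7.69% of all rows. Cyp11a1.1 (listed as cyp11a1), which starts steroid synthesis from cholesterol, had 10.16 and 10.39 on P5 and P6, between 5.80 and 7.18 on the other oocyte-rich arrays and between 5.76 and 8.43 on oocyte-poor arrays. Hsd17b1, which makes potent sex steroids, had 8.91 and 8.51 on P5 and P6, between 5.78 and 6.53 on the other oocyte-rich arrays and between 5.49 and 6.86 on oocyte-poor arrays. Without P5 and P6 the difference was -0.21 for cyp11a1.1 (0.91 with them) and -0.13 for hsd17b1 (0.58 with them). Cyp17a2, a hydroxylase of the pathway, differed by 1.21 (SE 0.60) and fdx1b, an electron carrier of the pathway, by 1.34 (SE 0.62). These differences were 0.54 and 0.76 without P5 and P6. Cyp17a2 was also high on P22 at 8.02, and fdx1b on P19 at 8.96.

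Genes typical of testicular somatic cells did not separate the groups either. Of 29 measured members 0 were counted, beside 0.327% of all rows counted as higher and 0.0222% as lower. At such shares 0 counted members says little about the list. At least 1 unit higher was 1 member, beside 3.68% of all rows, and the median difference was -0.11. That member was sox8b (listed as sox8), a relative of sox9a, which differed by 1.5025 (SE 0.48). Amh, the anti-Müllerian hormone, had 4.10, 4.94 and 6.08 on oocyte-rich arrays and 5.06, 5.80 and 6.77 on oocyte-poor arrays (-0.78, SE 0.32). These levels were low and overlapped. Dmrt1, a factor of testis differentiation, had medians of 5.67 on oocyte-rich and 5.69 on oocyte-poor arrays. The growth factor gsdf differed by 0.38 (SE 0.31), sox9a by -0.16 (SE 0.22) and the androgen receptor ar by -0.14 (SE 0.20).

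**Figure D4:**
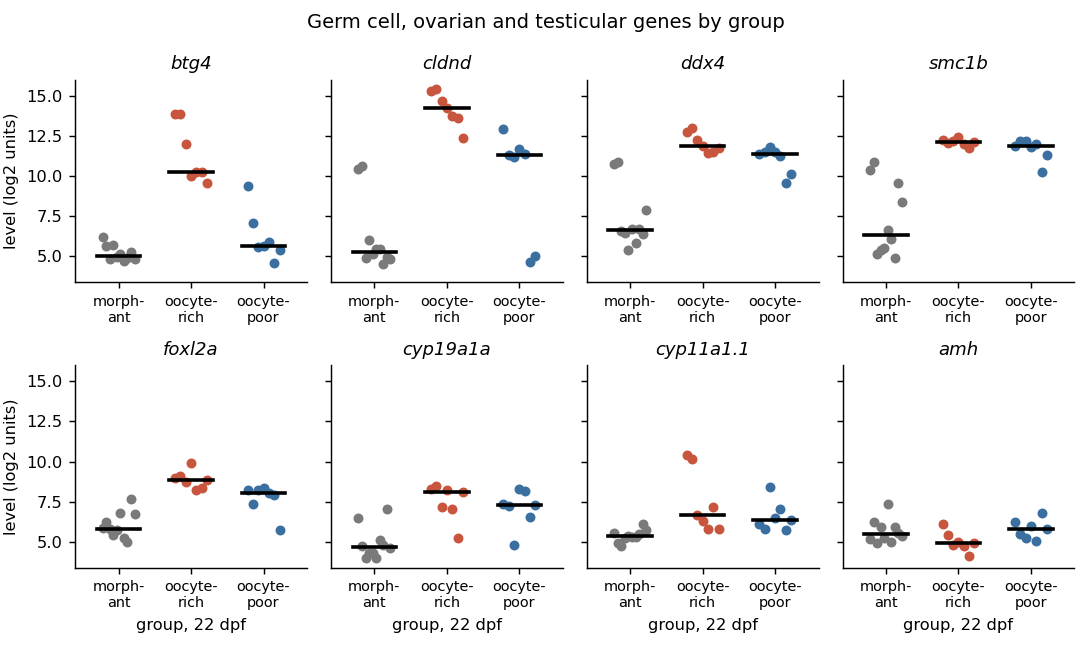
Levels (log2 units) of 8 genes on the 10 morphant, 7 oocyte-rich and 7 oocyte-poor arrays of 22 dpf, with 1 point per array and the group median as a bar. Btg4 separates the wild-type groups, cldnd has 2 low oocyte-poor arrays, ddx4, smc1b, cyp19a1a and amh overlap between them, and cyp11a1.1 is high on P5 and P6.

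Retinoid genes were mostly a little lower on oocyte-rich arrays. Of 28 measured members 0 were counted, beside 0.327% of all rows counted as higher, and 2 were at least 1 unit higher, beside 3.68%. The median difference was -0.27, and 8 of the 28 had a difference above 0, beside 14156 of the 31470 rows. This skew was not particular to the list. Differences above 0 were also few for Wnt (14 of 51), TGF-beta and BMP (14 of 50), epidermis (6 of 26) and skeletal muscle (3 of 33). The liver (22 of 31) and blood (15 of 20) lists went the other way. Stra6, the cell-surface receptor for retinol uptake, had 10.34, 11.94 and 12.92 on oocyte-rich arrays and 7.72, 10.40 and 11.31 on oocyte-poor arrays (1.66, SE 0.65). Rdh10b, which oxidizes retinol, had 12.54 and 12.36 on P5 and P6, and its difference was 1.26 (SE 0.64), or 0.35 without them. The retinoic acid-degrading cyp26a1 differed by -0.30 (SE 0.38). Vtg1, the yolk precursor that the liver makes under estrogen, lay between 4.06 and 4.98 on all 14 arrays, near the low end of the scale, and the estrogen receptor esr1 differed by -0.48 (SE 0.18). The list labelled estrogen-responsive liver holds the vitellogenins, esr1 and some other genes, whose response to estrogen was not tested. Of its 12 measured members 0 differed by 1 unit or more, beside 3.68% of all rows higher and 1.02% lower by that much. A difference above 0 was found for 6 of them.

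Cell cycle genes were a little higher on oocyte-rich arrays. Of 40 measured members 0 were counted, beside 0.327% of all rows counted as higher. A difference above 0 was found for 38 members, beside 14156 of the 31470 rows. Of the 40, 6 were at least 1 unit higher, beside 3.68% of all rows, and the median difference was 0.38. P5 and P6 were above all other arrays for 13 members, beside 7.69% of all rows. Without P5 and P6 the median was 0.22 and 1 member was at least 1 unit higher, beside 879 of the 31470 rows. The 6 members were the cyclin genes ccna1 at 1.57 (SE 0.51), ccnb2 at 1.29 (SE 0.49) and ccnb1 at 1.11 (SE 0.70), the mitotic kinase gene aurka at 1.55 (SE 0.57), the replication licensing gene cdt1 at 1.07 and the kinesin gene kif23 at 1.02. Other cyclins and mitotic kinases differed less, with ccna2 at 0.54, aurkb at 0.34 and cdk1 at 0.31. Eggs store cyclin B, and ccnb1 also stands in the list of oocyte factors. The proliferation markers mki67 (0.09, SE 0.15) and pcna (0.31, SE 0.21) were picked after their values were seen. Both lie below the list's median of 0.38, so they do not stand for the list. The source of the list's differences was not tested.

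Genes for digestive enzymes of the exocrine pancreas were lower on oocyte-rich arrays, and their levels were highest on 2 oocyte-poor arrays. All 25 measured members had a negative difference, 16 of them of at least 1 unit, beside 1.02% of all rows. Of the 25, 0 were counted, beside 0.0222% of all rows counted as lower, and the median was -1.19. Ctrb.2 (listed as zgc:136461), a chymotrypsinogen, had 5.40, 5.85 and 9.61 on oocyte-rich arrays and 6.58, 8.90 and 14.98 on oocyte-poor arrays (-2.81, SE 1.42). P21 at 14.98 and P23 at 13.75 stood far above the other oocyte-poor arrays. Sycn.2 (listed as loc568900), a protein of zymogen granules, and amylase, amy2al2 (listed as zgc:92137), peaked on the same arrays, at 14.80 and 14.23 on P21. The list's mean level was 13.30 on P21 and 12.02 on P23, against 7.71 to 8.53 on oocyte-rich arrays and 7.97 to 8.44 on the other oocyte-poor arrays. Without P21 and P23 the median difference was 0.04, and that of the egg coat list was 3.41.

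**Figure D5:**
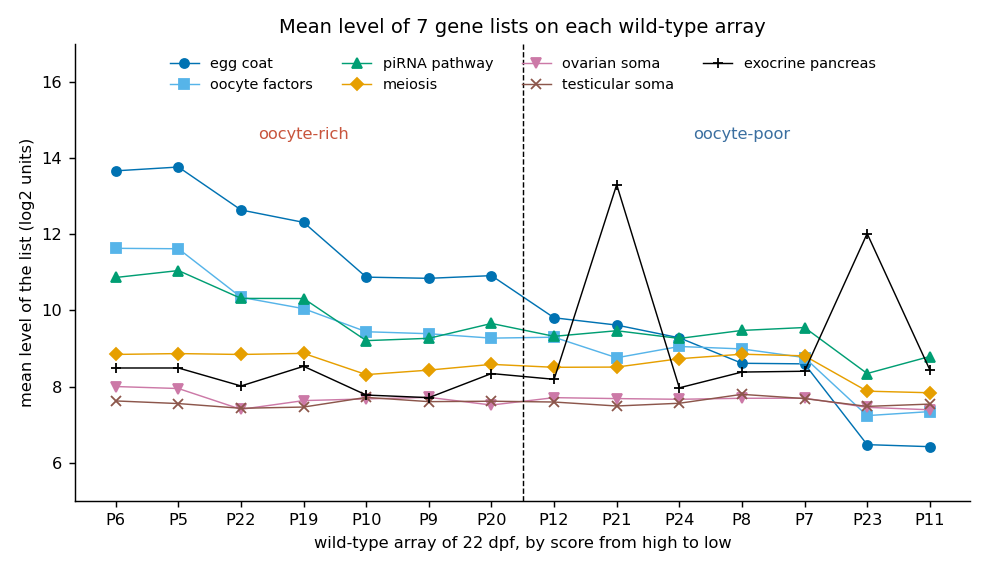
Mean level of the members of 7 gene lists (log2 units) on each wild-type array of 22 dpf, ordered by score. The egg coat mean declines from 13.77 on P5 to 6.42 on P11, the meiosis, ovarian and testicular means stay within a narrow band, and the exocrine pancreas mean peaks at 13.30 on P21 and 12.02 on P23.

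Other tissues showed no shift of that size. The median difference lay between -0.17 and 0.19 for the lists of liver, intestine, skeletal muscle, kidney, nervous tissue, epidermis, bone and cartilage, fat, blood and leukocytes. The liver list's mean was 9.89 on P22, against 6.50 to 7.19 on the other oocyte-rich arrays. Its median of 0.19 became 0.36 with pairs averaged and 0.41 without P5 and P6. In the latter setting 7 members in place of 1 were at least 1 unit higher, beside 879 of the 31470 rows. The median lay in the range given above for the lists of cholesterol synthesis, the circadian clock, spermatid and flagellum, Wnt, TGF-beta and BMP, p53 and apoptosis, and NF-kB and inflammation. Within the circadian list aanat1, which acts in melatonin synthesis, was counted as higher, with 6.91, 7.38 and 9.27 on oocyte-rich arrays and 5.16, 6.65 and 6.89 on oocyte-poor arrays. Within the blood list the globin gene hbba1 (listed as ba1) differed by 2.19 (SE 0.92), with 14.14 and 14.23 on P5 and P6, and overlapped between the groups.

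Of the 7 rows lower on oocyte-rich arrays, 3 could be named. Stc1, stanniocalcin, a hormone of calcium balance in fish, had 7.95, 8.35 and 8.76 on oocyte-rich arrays and 9.08, 9.57 and 9.91 on oocyte-poor arrays (-1.18, SE 0.16). Perm1b (listed as loc799552), whose mammalian relative regulates muscle metabolism, had 9.96, 10.22 and 10.53 on oocyte-rich arrays and 10.73, 11.40 and 11.77 on oocyte-poor arrays (-1.05, SE 0.16). Antxr1a (listed as loc793153), of the anthrax toxin receptor family, had 4.60, 5.73 and 6.10 on oocyte-rich arrays and 6.11, 6.90 and 8.03 on oocyte-poor arrays (-1.42, SE 0.32). The groups were apart for all 3 genes, by a narrow margin for antxr1a.

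The dnd morphants of 22 dpf give a scale for these levels. Their scores ran from 5.28 through a median of 6.17 to 8.57, so that P23 and P11 at 6.67 and 6.59 lay within the morphant range and the other 12 wild-type arrays above it. The highest morphant scores were 8.57 and 8.29, on the near-duplicates P1 and P2, and the other 8 ran from 5.28 to 6.49. Morphants and all 14 wild-type arrays were compared with limma, a comparison that shares its wild-type arrays with the split. After adjustment over all 31475 rows, 911 rows fell in morphants (2.89%) and 186 rose (0.591%). With the near-duplicate pairs averaged 631 rows fell and 36 rose, and with the title-number groups as a block 310 rose.

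Levels on P23 and P11 stood above most morphants for ddx4 and smc1b, but not for cldnd or h1m. Ddx4 ran from 5.40 through 6.63 to 10.86 in morphants, and 8 of the 10 morphants lay below the lowest wild-type array, P23 at 9.55. It fell in morphants by 4.19 (SE 0.56, limma adjusted p = 9.1e-07). Smc1b ran from 4.87 through 6.34 to 10.87 in morphants, 8 of them below P23 at 10.24, and fell by 4.60 (SE 0.55, adjusted p = 2.42e-07). The exceptions for both genes were P1 and P2. For cldnd, only 1 morphant lay below the lowest wild-type array, with 4.53, 5.28 and 10.64 in morphants. H1m was at 5.19 on P23 and 6.54 on P11, and its morphant median was 6.76. Cldnd fell in morphants by 5.72 (SE 0.90, adjusted p = 1.53e-05). These genes do not stand for their lists. Below the lowest wild-type array lay 7 of the 10 morphants for zp2.2 and 6 for buc, but 1 for dnd1 and 0 for btg4.

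In the egg coat list all 14 members fell in morphants, beside 2.89% of all rows. In the other germ cell lists 16 of 25 oocyte factors, 11 of 15 germ plasm, 12 of 18 piRNA and 13 of 24 meiosis members did, while none of these rose. In the same order of lists the counts were 14, 14, 9, 12 and 11 with pairs averaged. They were 13, 14, 8, 12 and 12 with the title-number groups as a block. Btg4 fell by 3.59 (SE 0.71, adjusted p = 0.000553). The change was -3.89 for zp3.1 (SE 0.70, adjusted p = 0.000133) and -1.71 for sycp2 (SE 0.27, adjusted p = 1.19e-05), a gene level between the wild-type groups. Hormad1, whose difference between them was -0.08 but of opposite sign in the title-number ranges, fell by 3.46 (SE 0.45, adjusted p = 7.63e-07). Gdf9 differed by -1.17 (SE 0.35, adjusted p = 0.0456) and lost its call under each of the 4 other fits.

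Of the ovarian somatic list 8 of 28 members fell and 0 rose, beside 2.89% of all rows that fell and 0.591% that rose. These 8 include foxl2l, which is a gene of germ cells, and a gene that also stands in the testicular list and is counted there too. Cyp19a1a had 3.97, 4.67 and 7.05 as lowest, median and highest level in morphants and fell by 2.37 (SE 0.40, adjusted p = 4.7e-05). Foxl2a had 4.998, 5.83 and 7.65 in morphants and fell by 2.24 (SE 0.39, adjusted p = 7.94e-05). The morphant range of foxl2a includes P11 at 5.73. Of the testicular list 3 of 29 members fell and 0 rose, among them gsdf at -1.55 (SE 0.35, adjusted p = 0.00284), while amh differed by 0.28 (SE 0.29, adjusted p = 0.766). With pairs averaged 5 ovarian members and 1 testicular member fell, beside 631 of the 31475 rows. Of the exocrine pancreas list 8 of 25 members rose and 0 fell, beside 0.591% of all rows that rose. With pairs averaged 0 members rose, beside 36 of the 31475 rows, and with the block 2 rose, beside 310. The mean level of this list ran from 7.88 through 11.29 to 13.43 in morphants. Stc1 (0.14, SE 0.27, adjusted p = 0.897), perm1b (0.38, SE 0.28, adjusted p = 0.624) and antxr1a (0.51, SE 0.33, adjusted p = 0.544) did not pass.

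In the wild-type arrays of 14 dpf, which the split did not use, the scores left little to compare. They ran from 5.18 through 6.03 to 7.31 (SD 0.63). The medians of zp3 (5.53), figla (4.69) and zar1 (5.63) lay near the low end of the scale. Zp2.2 and buc spread more widely. Zp2.2 had 5.09, 6.63 and 10.48 as lowest, median and highest level, and buc had 4.89, 7.53 and 9.92. The slope of each other row on the score was fitted with limma over these 14 arrays, and 0 of 31470 rows (0%) passed after adjustment, with 1768 at an unadjusted p under 0.05. With so narrow a range of scores this says little about the genes that differed at 22 dpf. The slope was 0.96 log2 units per unit of score for zp2.5 (SE 0.30, adjusted p = 0.857), -0.12 for ddx4 (SE 0.54, adjusted p = 0.985) and 0.06 for btg4 (SE 0.17, adjusted p = 0.975). No slope was fitted in the 10 morphants of 22 dpf, whose scores fall into a cluster of 8 arrays and the near-duplicates P1 and P2 apart from it.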

How the data were processed

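Total RNA of trunks was amplified and hybridized with Cy3, per the labels' protocols. The authors deposited log2 values for every row and array, made with RMA (no version stated) per the submitters' processing notes. Precision is limited by the number of arrays, since they have no read depth. Groups came from the labels, except the split. Of 31475 row names, 22574 matched 1 current gene in reference tables, 8815 none and 86 several, and a gene with several rows is represented by the one with the highest mean. No value column was left without a sample (0 columns).

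A row was counted when its groups did not overlap and differed by at least 1 log2 unit. Limma 3.58.1 in R 4.3.3 compared morphants with wild type on the 4 group means of all 47 arrays (43 residual degrees of freedom) and fitted the slopes, moderated with eBayes, and p-values were adjusted over all rows by Benjamini-Hochberg and called under 0.05. Scripts were tested on simulated data. Near-duplicates are pairs with r above 0.5 across rows whose mean is 8 or more. Alternatives were averaged pairs, outer arrays only, centred arrays, title-number groups as a block or apart, other minimum differences, a filter on low rows, standardized markers and left-out arrays.

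The members, lists and tests were chosen with earlier results of these data known. The naming rule took the 12 highest and 12 lowest counted named genes, the 4 members of a list that differed most (fewer in short lists), and 22 fixed genes, and only those of described groups are given. Outside the rule, chosen after their values were seen, are figla, zp2.5, zpcx, zp3b, zp3a.2, zglp1, pabpc1l, npm2a, npm2b, wee2, mos, foxh1, gdf3, wnt8-2, tuba4l, lhx8a, foxr1, tdrd9, nanos3, sycp1, sycp2, hormad1, foxl2l, mki67, pcna, cdt1, kif23, ccna2, aurkb, cdk1, amy2al2 and LOC100536860. The descriptions of P5 with P6, P11 with P23 and P21 with P23 were also chosen after the data had been seen.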

Additional observations from a re-analysis of the deposited data

Results flagged for a closer look

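In 7 of 273 sets of values tested (a named gene in 1 group of 22 dpf), a single array lay far from the rest of its group by Dixon's criterion, which chance meets in about 1 in 20 sets. Zpcx was highest on oocyte-rich array P22 at 12.59, against 10.52 to 11.33 on the other 6 arrays. Foxl2a was lowest on oocyte-poor array P11 at 5.73, against 7.36 to 8.38. Aanat1 was lowest on oocyte-poor array P21 at 5.16, against 6.20 to 6.89. Pcna was lowest on oocyte-poor array P12 at 11.87, against 12.82 to 13.20, and on morphant array P18 at 12.01, against 12.90 to 13.40. Gdf3 was highest on morphant array P2 at 6.34, against 4.58 to 5.25, and sox9a on morphant array P17 at 7.66, against 4.88 to 5.54.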

How the results depend on the processing

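The count of 103 rows higher and 7 lower on oocyte-rich arrays depends on which arrays are compared. With pairs averaged and the 5 highest set against the 5 lowest of 11 samples it was 229 and 28, and with the 5 highest and 5 lowest arrays 508 and 110. Within title numbers up to 12 it was 557 and 326 (4 against 4 arrays), and within those above 12 it was 812 and 427 (3 against 3), where fewer arrays overlap less often by construction. The rows lower were 17 with pairs averaged and groups kept, 13 at a least difference of 0.5 and 0 at 2 log2 units. Leaving out single arrays gave 103 to 207 rows higher and 8 to 23 lower. The highest counts of rows higher came without P20 (207) and without P12 (176), next to the boundary. The counts of rows lower passed 1.5 times the 7 without P9 (13), P12 (13), P19 (11), P20 (15), P21 (23), P22 (11) or P24 (16). Of alternatives chosen after seeing the data, leaving out P12 and P20 gave 313 and 34, leaving out P11 and P23 gave 16 rows lower, leaving out P5 and P6 gave 13 and leaving out P21 and P23 gave 35. Morphants had 36 rows higher with pairs averaged and 310 with the title-number groups as a block, against 186 in the reported fit. Of the 64 named genes that were not counted 13 changed sign under at least 1 alternative (amy2al2, cyp11a1.1, cyp19a1a, cyp26a1, dmrt1, foxl2l, hormad1, hsd17b1, sox9a, sycp1, sycp2, sycp3 and vtg1). Of 360 recomputed morphant values of the 90 named genes 20 lost their call, 1 gained one and 0 reversed. Zp3a.1 lost its call with the block at -3.67, and dmrt1, cyp11a1.1, nanos3, ca15b, aanat1 and amy2al2 lost theirs under some fits. The cause of these changes was not tested. The slope planned for morphants and its alternatives were not run, because the plan left it out where scores fall into separate clusters of under 6 arrays. No paired analysis was possible because both groups of the split come from 1 labelled group whose title numbers are not shared between arrays. Signal near the low end of the scale, and samples that may be present in more than 1 array, limit what the differences show.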
